A study of Bos taurus with 24 samples.

Results

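The genes described here are 10 immediate early genes, JUN, JUNB, JUND, FOS, FOSB, EGR1, ATF3, IER3, NR4A1 and KLF4, of which IER3 alone does not encode a transcription factor. They were chosen by name, and all 10 were found among the 27607 cow genes of the count table. The 24 bulk RNA libraries come from granulosa cells of cows at 3 follicle stages. The secondary stage gave 4 libraries of granulosa cells (secondary_GC). The early antral stage gave 5 of cumulus cells (early_CC) and 5 of mural cells (early_MGC), and the late antral stage 5 of cumulus cells (late_CC) and 5 of mural cells (late_MGC). Cumulus cells lie against the oocyte and mural cells line the wall of the follicle. The study asked which of these cells can regrow transzonal projections, thin extensions that reach through the coat of the oocyte, and set their transcriptomes side by side. The labels name no strain, age, treatment, follicle diameter or time between collection and lysis, and no animal or culture for any library. The p-values below therefore measure the spread between these libraries, which may be technical.

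Immediate early genes are transcribed from factors already present in the cell, with no need for new protein, when growth factors, hormones or stress activate kinase cascades. Their RNAs are short-lived, so their level follows the recent state of the cell. JUN and FOS proteins pair to form the activator AP-1, which binds DNA and drives later genes. EGR1 and KLF4 are zinc finger factors, NR4A1 is an orphan nuclear receptor, ATF3 is a stress-induced factor of the ATF family and IER3 acts on cell survival and kinase signalling. In granulosa cells of several mammals EGR1, FOS and NR4A1 are known as early targets of the ovulatory hormone surge.

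Library totals ran from 8379801 to 31762400 counts. Levels are given in CPM, a gene's counts per 1000000 counts of its library. All 12 granulosa markers examined, among them FSHR and CYP19A1, were detected in every group. Their summed level stood between 9541 and 13340 CPM in 4 late_MGC libraries and at 963 CPM in late_MGC 3, which held 2109 CPM of theca and stroma markers against 202 to 365 CPM in the other 4. Replicate 3 of late_CC held 5788 CPM of granulosa markers against 20090 to 32910 CPM in the other 4 late_CC libraries. Mitochondrial genes took 36.5% of the counts of early_MGC 4 and 12.5% to 20.9% of those of the other early_MGC libraries. These 3 libraries stood apart from their groups, and results that rest on one of them are given with and without it. White blood cell markers summed to at most 10.3 CPM and those of endothelium to at most 46.3 CPM in any library. Erythroid markers summed to 109.6, 169, 3.74, 173 and 198 CPM in late_CC libraries 1 to 5 and to at most 2.65 CPM in all others. Of these markers HBB was at 0 in every library. In bulk RNA, fewer cells that express a gene and less RNA per cell cannot be told apart.

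The 10 genes together made up 0.494% to 0.928% of all counts in secondary_GC, 0.229% to 0.483% in early_CC, 0.226% to 1.105% in early_MGC, 0.0521% to 0.339% in late_CC and 0.00805% to 0.1596% in late_MGC libraries. Their summed level was 6813 ± 1808 CPM in secondary_GC (SD, n = 4), 3620 ± 957 in early_CC, 5143 ± 3453 in early_MGC, 1554 ± 1223 in late_CC and 927 ± 648 in late_MGC (SD, n = 5 each). The mean of secondary_GC was the highest of the 5 groups for 6 genes and that of late_MGC the lowest for 7. Set in order of their means, the groups of the 10 genes form 40 neighbouring pairs, and the ranges of 39 of these pairs overlapped. The exception was FOS, whose lowest early_CC library lay above its highest late_CC library.

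Per kilobase of exon, the scale on which genes can be compared with each other, FOS had the highest mean level of the 10 in each of the 5 groups. Among the 14298 genes tested it ranked 88 in secondary_GC, 188 in early_CC, 137 in early_MGC, 484 in late_CC and 656 in late_MGC by this level. JUN ranked between 481 and 1439. At the other end KLF4 ranked 6538, 6361, 2422, 13831 and 7768 in the same order of groups. NR4A1 stood at 3137, 3661, 4583, 1451 and 10149, so that its place in late_CC was its highest and its place in late_MGC its lowest.

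**Figure D1:**
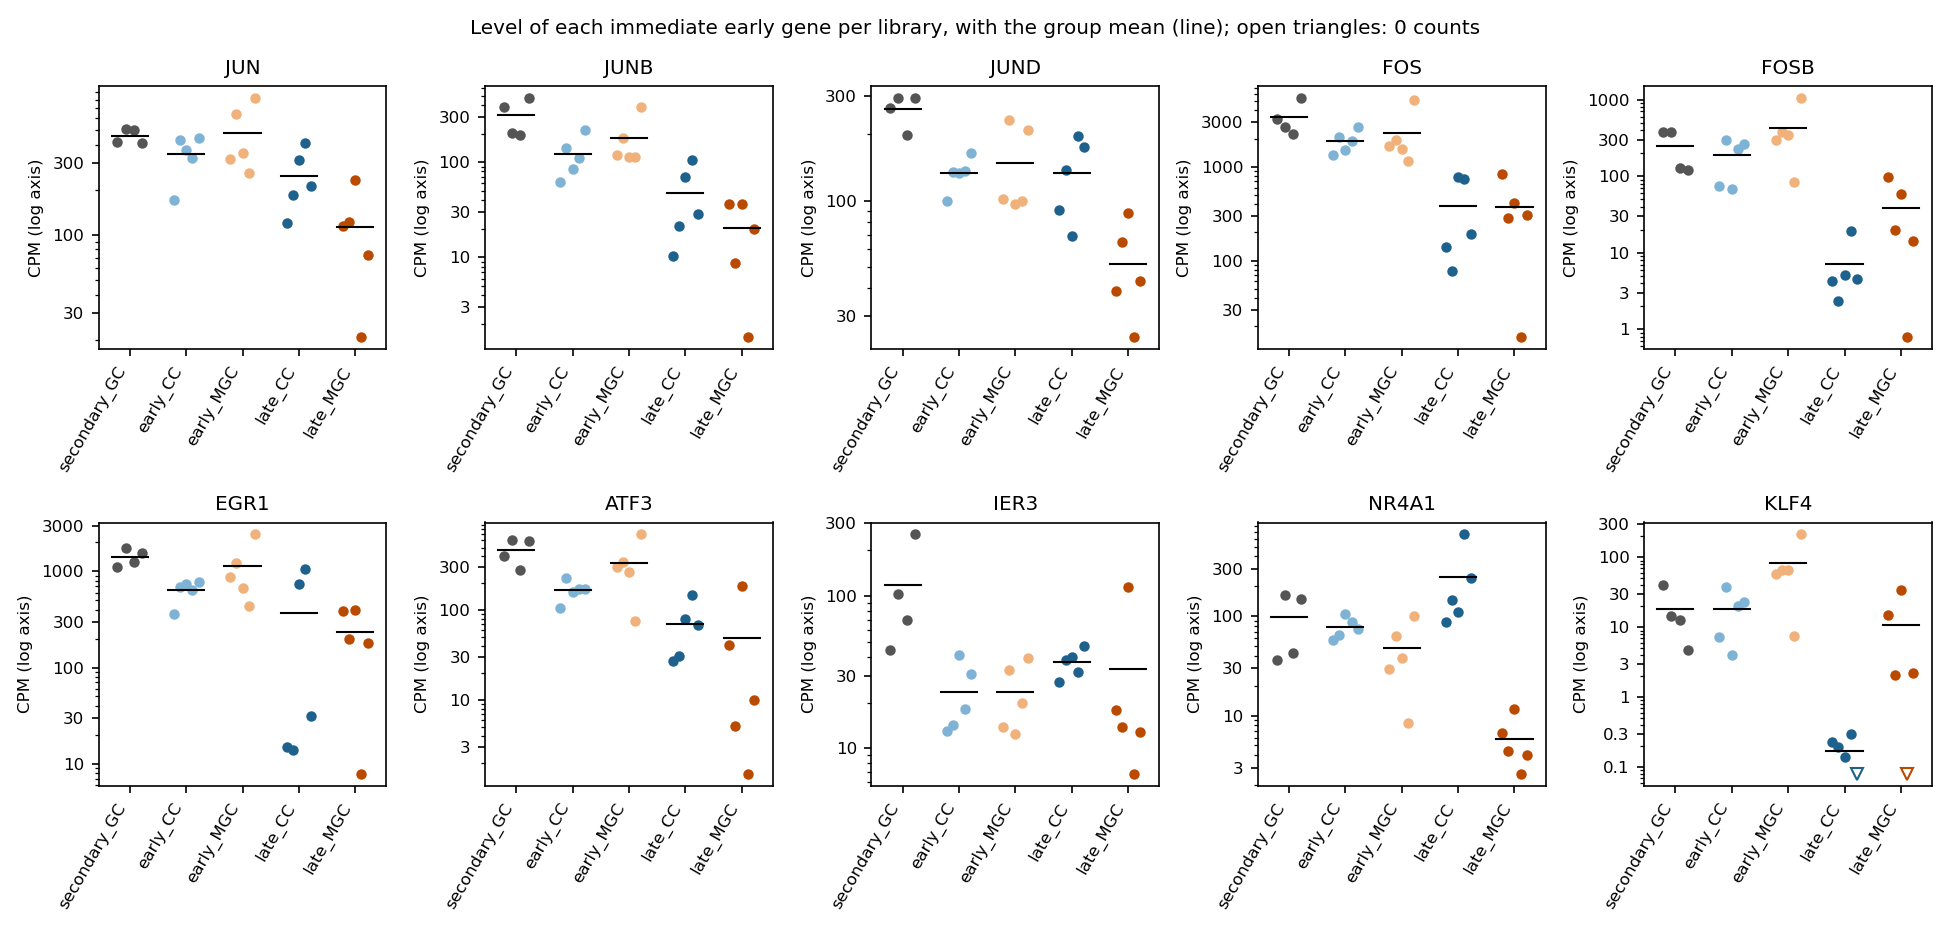
Level of each gene in CPM on a log axis, 1 point per library, in the 5 groups from secondary to late antral follicles; lines are group means and open triangles mark libraries with 0 counts. The late_CC points of KLF4 lie at or under 0.302 CPM, those of NR4A1 lie above all late_MGC points, and late_MGC 4 is the lowest point of its group for all 10 genes.

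Counts were tested with edgeR's quasi-likelihood test over all 14298 genes. A gene counts as called, and is said to rise or fall, at a Benjamini-Hochberg adjusted p under 0.05. All 10 genes passed the filter on low counts. In mural cells, 8 of the 10 genes fell in late_MGC relative to early_MGC and none rose, where 9.3% of all tested genes were called lower and 9.76% higher. The 8 were JUN, JUNB, JUND, FOS, FOSB, ATF3, NR4A1 and KLF4. For 5 genes every late_MGC library lay below every early_MGC library, as it did for 7.08% of all tested genes. The median log2 fold change was -2.55 over the 10 genes and 0.05 over all tested genes. The count of 8 went down to 5 without early_MGC 5 and to 4 in a fit of these 2 groups alone, and was 6 without the filter on low counts. Of all genes these fits called 2093, 1612 and 2367 in either direction, against 2725 in the fit over all libraries. In the same comparison 3 of the 4 tested white blood cell markers fell, ITGAM, PTPRC and LYZ, and the whole list of 9 summed to 0.601 to 2.14 CPM in late_MGC, against 1.98 to 10.3 CPM in early_MGC libraries. Of the 5 tested endothelium markers FLT1 fell, and the list of 8 summed to 2.09 to 26.3 CPM in late_MGC, against 25.2 to 46.3 CPM in early_MGC libraries, where CDH5 and TIE1 were at 0. The part of these cells in the result was not tested.

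In cumulus cells, KLF4, FOSB and FOS fell in late_CC relative to early_CC and NR4A1 rose. In this comparison 45.2% of all tested genes were called, 22.5% higher and 22.7% lower, so 4 called genes of 10 lie near the background. The late_CC and early_CC libraries did not overlap for the 3 genes that fell, against 19.3% of all tested genes with late_CC below early_CC. The median log2 fold change was -1.03 over the 10 genes and 0.04 over all tested genes. Among erythroid markers HBA and HBZ rose in the same comparison, while HBB was at 0 in every library of both groups. The list of 4 summed to 3.74 to 198 CPM in late_CC, against 0.948 to 2.65 CPM in early_CC libraries. The part of these markers in the result was not tested.

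Between the cell types of late antral follicles, NR4A1 and JUND were higher in late_CC than in late_MGC, and KLF4 and FOSB were lower. Of all tested genes 39.7% were called, 18.9% higher and 20.8% lower, so this share of 4 in 10 is that of the background. NR4A1 was the 1 gene of the 10 whose late_CC libraries all lay above the late_MGC libraries, against 14.4% of all tested genes. Without late_MGC 3 the genes called higher numbered 5, with JUN, ATF3 and IER3 added. That fit called 5891 of all genes in either direction, against 5673 over all libraries. The same 4 antral groups were also tested for an interaction, the change from early_CC to late_CC minus that from early_MGC to late_MGC. It was called above 0 for 3 genes, NR4A1, JUND and JUN, against 14.5% of all tested genes.

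Few of the 10 genes were called at the earlier steps in the fit over all libraries, which does not show that the others stayed level. Their median log2 fold change over secondary_GC was -0.45 in early_MGC and -0.87 in early_CC. Over all tested genes these medians were -0.004 and 0.014. In early_MGC against secondary_GC, JUND (lower) and KLF4 (higher, 2.25 ± 1.03, adjusted p = 0.179) were not called but had an unadjusted p under 0.05. IER3 fell in early_MGC relative to secondary_GC, the 1 gene called where 4.08% of all tested genes were called lower, and its libraries did not overlap, as for 6.84% of all tested genes with early_MGC lower. None was called in early_CC against secondary_GC by edgeR, where 1.99% of all tested genes were called and 1.05% were called lower, and 2 had an unadjusted p under 0.05, IER3 and JUND. For IER3, JUND, EGR1 and ATF3 every early_CC library lay below every secondary_GC library, against 5.3% of all tested genes. DESeq2 called 2 of the 10 lower there, limma-voom 1, a fit of the 2 groups alone 6, and edgeR without the 3 libraries that stand apart 2. Of all genes these fits called 722, 603, 964 and 1304 there, against 285 with edgeR over all libraries. None was called in early_CC against early_MGC by edgeR over all libraries, DESeq2 or limma-voom, where edgeR called 13.1% of all tested genes. KLF4 alone had an unadjusted p under 0.05, and edgeR fitted on the 15 numbered libraries alone called it. Comparisons that share a group share its libraries, so their results are not independent of each other.

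**Figure D2:**
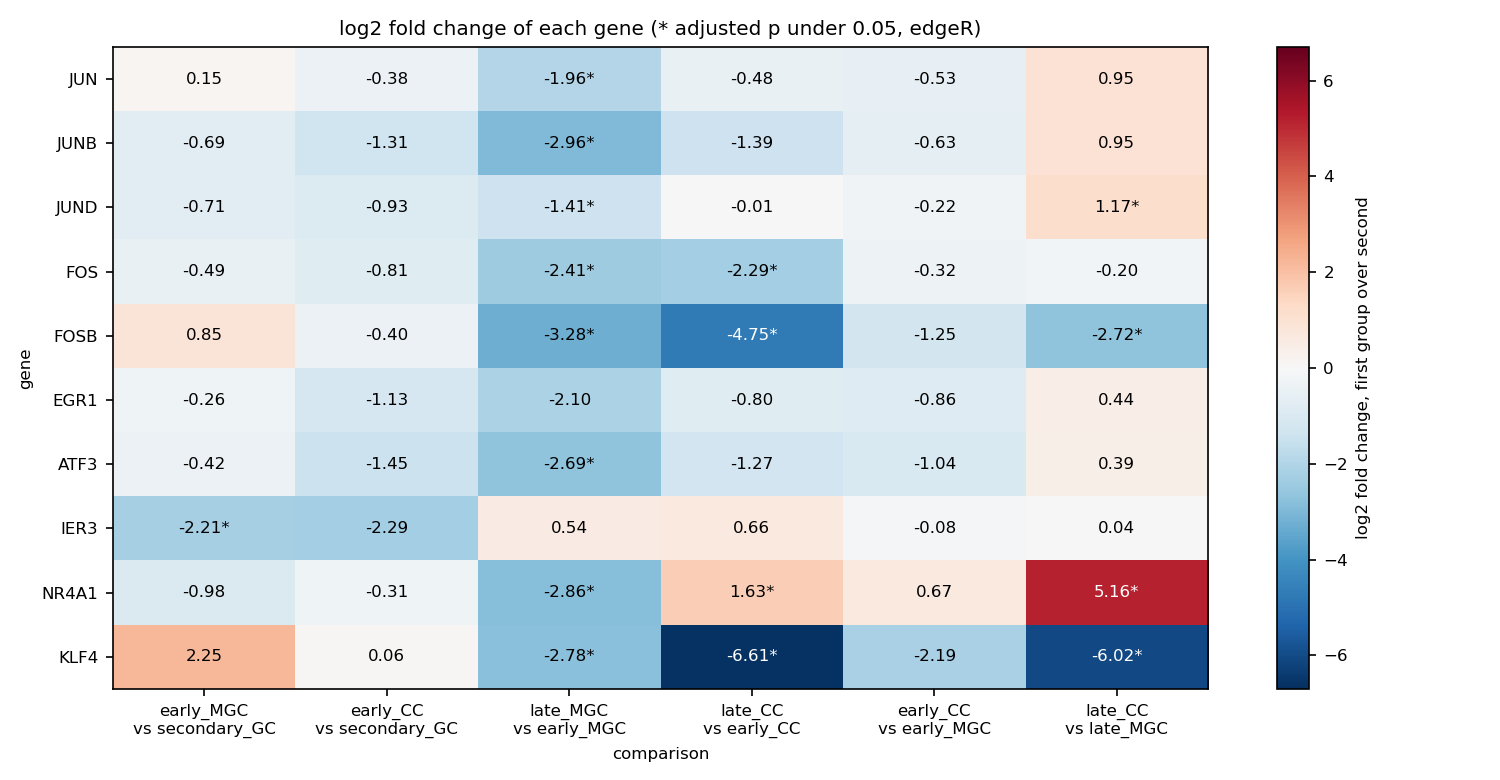
Log2 fold change of the 10 genes in the 6 comparisons, the first group named over the second; stars mark an adjusted p under 0.05 in edgeR's quasi-likelihood test. Of the 10 entries of late_MGC over early_MGC, 8 carry a star, and those of NR4A1 have opposite signs in mural and cumulus cells.

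JUN, the AP-1 subunit that gives the family its name (ENSBTAG00000004037, chromosome 3, 87265962 to 87268007 of ARS-UCD1.2, plus strand), had 115, 122, 231, 20.7 and 73.8 CPM in late_MGC libraries 1 to 5, against 319.8, 638, 349, 259.8 and 819.7 CPM in early_MGC libraries 1 to 5. The groups did not overlap, and late_MGC 4 was the lowest of all 24 libraries. JUN fell 3.90-fold in late_MGC, a log2 fold change of -1.96 ± 0.41 (SE; adjusted p = 0.00177), and the call held without any single library. In cumulus cells JUN had 119.5, 186, 316, 410.2 and 212 CPM in late_CC libraries, against 172, 428, 366, 328 and 443 CPM in early_CC libraries. These ranges overlapped widely, and JUN was not called at -0.48 ± 0.40 (adjusted p = 0.342). The interaction, the difference between both changes, was 1.48 ± 0.57 (adjusted p = 0.0489). That call was lost without any 1 of 13 libraries (early_CC 1 to 5, late_CC 3, 4 or 5, early_MGC 2 or 5, and late_MGC 1, 2 or 5; adjusted p = 0.0524 to 0.0985) and without the filter on low counts (1.39, adjusted p = 0.0953). JUN in late_CC was not called against late_MGC at 0.95 ± 0.40 (adjusted p = 0.0622), but was without late_MGC 3 (1.32, adjusted p = 0.0105) or late_CC 1 (1.16, adjusted p = 0.0312), and by DESeq2 (0.96, adjusted p = 0.0333). In secondary_GC, JUN stood at 416, 507, 501 and 408 CPM, the narrowest spread among its 5 groups.

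JUND, an AP-1 subunit that many cells also express at rest (ENSBTAG00000052791, chromosome 7, 4912209 to 4913960 of ARS-UCD1.2, plus strand), moved least of the 8 genes that fell in mural cells. It had 38.7, 64.9, 88.2, 23.9 and 43.0 CPM in late_MGC and 102, 234, 96.3, 99.6 and 209.6 CPM in early_MGC libraries, with no overlap. JUND fell 2.66-fold, a log2 fold change of -1.41 ± 0.28 (SE; adjusted p = 0.00103). Its late_CC libraries stood at 90.5, 138, 68.9, 197 and 176 CPM and its early_CC libraries at 99.7, 136, 134, 137 and 165 CPM. The group means were 134 ± 54.4 CPM in late_CC and 134 ± 23.1 CPM in early_CC (SD, n = 5 each). JUND was 2.26-fold higher in late_CC than in late_MGC, 1.17 ± 0.28 (adjusted p = 0.00180), although late_CC 3 lay within the range of late_MGC. The interaction was 1.40 ± 0.39 (adjusted p = 0.00866). These 3 calls held without any single library. Against secondary_GC, with 265, 293, 198 and 292 CPM, JUND was not called in early_CC at -0.93 ± 0.29 (adjusted p = 0.0917) or in early_MGC at -0.71 ± 0.29 (adjusted p = 0.129), although no early_CC library reached the lowest of secondary_GC. DESeq2 called it in early_CC (-0.999, adjusted p = 0.0284).

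JUNB, an AP-1 subunit that often restrains JUN (ENSBTAG00000012046, chromosome 7, 12736091 to 12737893 of ARS-UCD1.2, minus strand), fell more steeply. It had 36.4, 8.70, 36.0, 1.44 and 19.9 CPM in late_MGC, against 118, 180.2, 113, 114 and 376 CPM in early_MGC libraries. No libraries of the 2 groups overlapped, and early_MGC 5 stood far above the rest of its group. JUNB fell 7.79-fold, a log2 fold change of -2.96 ± 0.67 (SE; adjusted p = 0.00383), and the call held without any single library. In cumulus cells the levels were 10.2, 21.3, 69.7, 106 and 28.7 CPM in late_CC and 61.4, 141, 84.2, 112 and 216 CPM in early_CC, overlapping through late_CC 3 and 4. JUNB was not called there at -1.39 ± 0.63 (adjusted p = 0.0793). It was called without late_CC 4 (-1.83, adjusted p = 0.0336) and with limma-voom (-1.72, adjusted p = 0.0177). Secondary_GC libraries held 377, 202, 193 and 472 CPM, the highest group mean of JUNB, and neither early group was called against it.

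Per kilobase of exon, JUN made up about the same share of the 3 JUN genes in the 4 antral groups: 54.9% ± 4.66 in early_CC, 56.9% ± 2.87 in early_MGC, 54.8% ± 7.53 in late_CC and 55.0% ± 8.17 in late_MGC (SD, n = 5 each), with 43.0% ± 9.71 in secondary_GC (SD, n = 4). The share of JUNB was 10.7% ± 7.02 in late_MGC and 22.9% ± 3.79 in early_MGC, and 9.94% ± 5.37 in late_CC and 20.4% ± 4.37 in early_CC. JUND took 34.3% ± 12.5 in late_MGC and 20.2% ± 3.10 in early_MGC, and 35.3% ± 12.2 in late_CC and 24.7% ± 4.44 in early_CC. In these libraries the make-up of the family thus moved in the same direction in both cell types, JUNB down and JUND up, in shares that were not tested and whose ranges overlapped between early and late libraries.

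**Figure D3:**
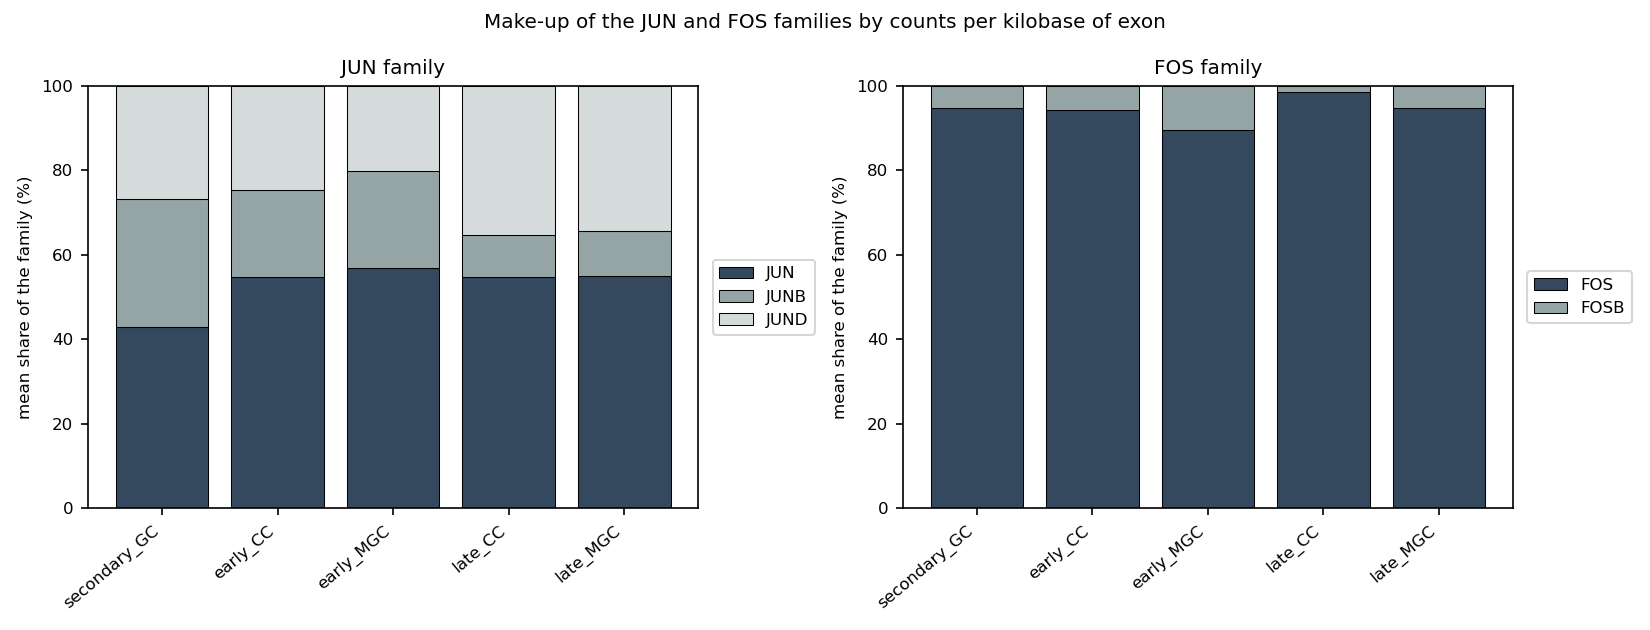
Mean share of JUN, JUNB and JUND (left) and of FOS and FOSB (right) in their family, in percent of counts per kilobase of exon, in the 5 groups. The JUNB share is 9.94% in late_CC and 10.7% in late_MGC and at least 20.4% in the other groups; FOS takes at least 89.7% of its pair in every group.

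FOS, the AP-1 subunit that pairs with JUN proteins (ENSBTAG00000004322, chromosome 10, 86488645 to 86492108 of ARS-UCD1.2, plus strand), was the most abundant of the 10 genes. It had 845, 287, 407, 15.1 and 308 CPM in late_MGC libraries, against 1686, 1925, 1546, 1151 and 5124 CPM in early_MGC libraries. The groups did not overlap, although early_MGC 5 reached 4.45 times the level of early_MGC 4. FOS fell 5.30-fold in late_MGC, a log2 fold change of -2.41 ± 0.70 (SE; adjusted p = 0.0200). The call was lost without early_MGC 5 (-1.98, adjusted p = 0.0619) and when the 2 groups were fitted alone (-2.48, adjusted p = 0.0654), and the estimate was -3.06, adjusted p = 0.00768 without late_MGC 1. In cumulus cells FOS had 141, 77.0, 776, 747 and 191 CPM in late_CC and 1336, 2090, 1513, 1897 and 2669 CPM in early_CC. Every early_CC library lay above every late_CC library, while the late_CC libraries fell into a pair at 776 and 747 CPM (late_CC 3 and 4) and 3 at 191 CPM or less. FOS fell 4.88-fold, a log2 fold change of -2.29 ± 0.70 (SE; adjusted p = 0.0111), and no single library decided the call. In secondary_GC it stood at 3281, 2652, 2255 and 5436 CPM, and it was not called in early_CC at -0.81 ± 0.71 (adjusted p = 0.627).

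FOSB, the other FOS family member of the set (ENSBTAG00000008182, chromosome 18, 53074888 to 53081288 of ARS-UCD1.2, plus strand), fell steeply in late cumulus cells. FOSB was still detected in every late_CC library, at 47 to 315 counts. It had 4.24, 2.31, 5.19, 19.03 and 4.58 CPM in late_CC, against 73.8, 301, 68.1, 226 and 264 CPM in early_CC libraries. Each early_CC library was above each late_CC library, and late_CC 4 was the highest of the late ones. FOSB fell 26.8-fold, a log2 fold change of -4.75 ± 0.93 (SE; adjusted p = 0.000368), and stood at -5.45, adjusted p = 0.000370 without late_CC 4. In mural cells it had 96.2, 19.6, 59.2, 0.781 and 14.3 CPM in late_MGC and 299, 378, 350.1, 83.5 and 1051 CPM in early_MGC. Here the groups overlapped, because late_MGC 1 lay above early_MGC 4. FOSB fell 9.69-fold in late_MGC, a log2 fold change of -3.28 ± 0.86 (SE; adjusted p = 0.0114). The estimate was -4.11, adjusted p = 0.00481 without late_MGC 1 and -4.02, adjusted p = 0.00114 with limma-voom, and the call was lost in a fit of the 2 groups alone (-3.35, adjusted p = 0.0610). FOSB was also lower in late_CC than in late_MGC, -2.72 ± 0.86 (adjusted p = 0.0158), a call lost without late_MGC 1 (-1.89, adjusted p = 0.0776) and with limma-voom (-1.98, adjusted p = 0.153). Without late_CC 4 it was -3.42, adjusted p = 0.00786. The interaction was not called, -1.47 ± 1.14 (adjusted p = 0.348), so a difference between the falls in cumulus and mural cells was not shown. Of the summed FOS and FOSB level per kilobase, FOSB held 1.51% ± 0.623 in late_CC and 5.71% ± 2.47 in early_CC (SD, n = 5 each), with no overlap of the libraries. In secondary_GC FOSB had 380.5, 374, 129 and 119 CPM.

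EGR1, a zinc finger factor (ENSBTAG00000010069, chromosome 7, 49825961 to 49830306 of ARS-UCD1.2, plus strand), split the late cumulus libraries. It had 14.8, 13.9, 740.2, 1068 and 31.1 CPM in late_CC libraries 1 to 5, against 365, 690, 733, 639.5 and 771 CPM in early_CC. Libraries 3 and 4 of late_CC lay in or above the range of early_CC and the other 3 lay far below it. The highest late_CC library held 76.5 times the level of the lowest, against 2.12 times in early_CC. EGR1 was not called at -0.80 ± 0.95 (adjusted p = 0.514), but limma-voom called it lower (-2.82, adjusted p = 0.0262). In mural cells EGR1 had 384, 198, 396, 7.81 and 180.5 CPM in late_MGC, against 865, 1238, 676, 439 and 2423 CPM in early_MGC. No late_MGC library reached the lowest early_MGC library, yet EGR1 was not called at -2.10 ± 0.98 (adjusted p = 0.146). In secondary_GC the levels were 1102, 1770, 1258 and 1544 CPM, all above the early_CC libraries. EGR1 in early_CC was not called against them at -1.13 ± 0.997 (adjusted p = 0.634), although a fit of the 2 groups alone called it (-1.17, adjusted p = 0.00395).

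KLF4, a zinc finger factor known from the reprogramming of cells to pluripotency (ENSBTAG00000020355, chromosome 8, 97174615 to 97179335 of ARS-UCD1.2, minus strand), was at the edge of detection in late cumulus cells. The 5 late_CC libraries held 4, 4, 2, 5 and 0 counts, or 0.229, 0.197, 0.138, 0.302 and 0 CPM, where 3 counts correspond to 0.147 to 0.211 CPM. The early_CC libraries had 7.30, 37.8, 3.98, 20.4 and 22.9 CPM. The groups stood far apart, and KLF4 fell in late_CC at -6.61 ± 1.33 (adjusted p = 0.000473). At so few counts the size of this fall is uncertain, and the limit of 3 counts covers counting error only. In mural cells KLF4 had 14.8, 2.06, 34.5, 0 and 2.23 CPM in late_MGC and 58.6, 66.7, 66.2, 7.40 and 213 CPM in early_MGC. The groups overlapped, since late_MGC 1 and 3 lay above early_MGC 4. KLF4 fell 6.89-fold, a log2 fold change of -2.78 ± 0.97 (SE; adjusted p = 0.0488). This call was lost without early_MGC 1, 2, 3 or 5 or late_MGC 1, 2, 4 or 5 (adjusted p = 0.0615 to 0.1403), without the filter on low counts (adjusted p = 0.0796) and when the 2 groups were fitted alone (adjusted p = 0.163). The estimate was -2.17, adjusted p = 0.140 without early_MGC 5 and -3.76, adjusted p = 0.0124 without late_MGC 3, and -4.20, adjusted p = 0.0143 with limma-voom. KLF4 was lower in late_CC than in late_MGC, -6.02 ± 1.33 (adjusted p = 0.00124), and was not called there by limma-voom (-4.31, adjusted p = 0.219). Without late_MGC 3 it stood at -5.04, adjusted p = 0.00432. The interaction was not called at -3.83 ± 1.62 (adjusted p = 0.0774), but was without early_MGC 5 (-4.45, adjusted p = 0.0449) or late_MGC 4 (-4.15, adjusted p = 0.0296) and by DESeq2 (-3.88, adjusted p = 0.0257). It was -2.13, adjusted p = 0.606 with limma-voom and -2.53, adjusted p = 0.274 without the 3 libraries that stand apart. Between the early groups the log2 fold change of early_CC over early_MGC was not called, -2.19 ± 0.94 (adjusted p = 0.133), but was when the 15 numbered libraries were fitted alone (-2.20, adjusted p = 0.0336), and secondary_GC had 40.6, 14.6, 12.8 and 4.74 CPM.

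NR4A1, an orphan nuclear receptor (ENSBTAG00000000507, chromosome 5, 27820352 to 27839685 of ARS-UCD1.2, minus strand), was the 1 gene of the 10 called higher in late cumulus cells and lower in late mural cells. It had 86.3, 144, 109, 662 and 244 CPM in late_CC, against 56.9, 64.5, 104.8, 86.4 and 73.5 CPM in early_CC. Late_CC 1 lay inside the range of early_CC, and late_CC 4 stood far above all other libraries. NR4A1 rose 3.09-fold in late_CC, a log2 fold change of 1.63 ± 0.57 (SE; adjusted p = 0.0232). The call was lost without late_CC 4 (0.95, adjusted p = 0.146), without early_CC 1 (1.55, adjusted p = 0.0526) and without the filter on low counts (1.56, adjusted p = 0.0538). In mural cells NR4A1 had 6.68, 4.35, 11.6, 2.58 and 4.03 CPM in late_MGC and 29.5, 62.5, 37.9, 8.35 and 100.1 CPM in early_MGC. The ranges overlapped because early_MGC 4, the lowest of its group, lay below late_MGC 3. NR4A1 fell 7.26-fold, a log2 fold change of -2.86 ± 0.60 (SE; adjusted p = 0.00208). Every late_CC library lay above every late_MGC library, and NR4A1 was 35.7-fold higher in late_CC, a log2 fold change of 5.16 ± 0.66 (SE; adjusted p = 3.47e-06). The interaction was 4.49 ± 0.83 (adjusted p = 0.000364). These 3 calls held without any single library, with 4.48, adjusted p = 5.55e-06 for late_CC over late_MGC and 3.81, adjusted p = 0.000694 for the interaction without late_CC 4. Without the 3 libraries that stand apart the interaction was 5.23, adjusted p = 7.65e-05. Early_CC over early_MGC was not called, 0.67 ± 0.56 (adjusted p = 0.468).

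ATF3, a stress-induced factor that represses or activates with JUN partners (ENSBTAG00000008545, chromosome 16, 70924511 to 70937490 of ARS-UCD1.2, minus strand), had 40.9, 5.14, 187, 1.502 and 10.1 CPM in late_MGC, against 300.1, 343, 265, 77.0 and 699.9 CPM in early_MGC. Late_MGC 3 stood at 187 CPM, above the other late_MGC libraries, and inside the range of early_MGC. ATF3 fell 6.47-fold, a log2 fold change of -2.69 ± 0.84 (SE; adjusted p = 0.0297). Without late_MGC 3, the library low in granulosa markers and high in theca and stroma markers, the estimate was -4.24, adjusted p = 0.000584, and with limma-voom it was -4.00, adjusted p = 0.000591. The call was lost without early_MGC 5 or late_MGC 1, 2 or 5 (adjusted p = 0.0506 to 0.0735), without the filter on low counts (adjusted p = 0.0509) and when the 2 groups were fitted alone (adjusted p = 0.152). In cumulus cells ATF3 had 27.1, 30.9, 80.2, 149 and 68.5 CPM in late_CC and 107, 231, 161, 172 and 174 CPM in early_CC, overlapping through late_CC 4. It was not called there at -1.27 ± 0.80 (adjusted p = 0.207), but was when the 2 groups (-1.30, adjusted p = 0.0161) or the 15 numbered libraries (-1.26, adjusted p = 0.0297) were fitted alone. The interaction was not called at 1.43 ± 1.12 (adjusted p = 0.357), but was without late_MGC 3 (2.98, adjusted p = 0.0179). Secondary_GC had 399.6, 610, 284 and 599 CPM, all above the early_CC libraries, and early_CC was not called against it at -1.45 ± 0.84 (adjusted p = 0.412).

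IER3, a short protein that modulates survival and kinase signalling (ENSBTAG00000011358, chromosome 23, 28284912 to 28286183 of ARS-UCD1.2, plus strand), followed another pattern. It had 13.9, 32.7, 12.3, 19.8 and 39.0 CPM in early_MGC, against 44.4, 103, 69.3 and 254 CPM in secondary_GC. No early_MGC library reached the lowest secondary_GC library, and secondary_GC 4 stood highest. IER3 fell 4.62-fold in early_MGC, a log2 fold change of -2.21 ± 0.63 (SE; adjusted p = 0.0329). The call was lost without secondary_GC 4 (-1.53, adjusted p = 0.180), secondary_GC 2 or early_MGC 1, 3 or 4 (adjusted p = 0.0562 to 0.072) and without the filter on low counts (adjusted p = 0.0613). Early_CC libraries, at 12.9, 14.2, 41.3, 18.01 and 30.9 CPM, also lay below all secondary_GC libraries, and IER3 was not called there at -2.29 ± 0.63 (adjusted p = 0.0620). It was called by DESeq2 (-2.36, adjusted p = 0.00945) and without secondary_GC 1 (-2.57, adjusted p = 0.0373), and was at -1.61, adjusted p = 0.208 without secondary_GC 4. From early to late antral follicles IER3 was not called in either cell type by the fit over all libraries. It had 17.7, 13.8, 115, 6.79 and 12.8 CPM in late_MGC and 27.1, 37.9, 39.9, 31.8 and 47.2 CPM in late_CC. Late_MGC 3 alone set the sign in mural cells: the estimate was 0.54 ± 0.59 (adjusted p = 0.567) with it and -0.69, adjusted p = 0.276 without it. In late_CC, IER3 had the narrowest spread of the 10 genes, an SD of 21.01% of the mean, and its estimate over early_CC was 0.66 ± 0.59 (adjusted p = 0.374).

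**Figure D4:**
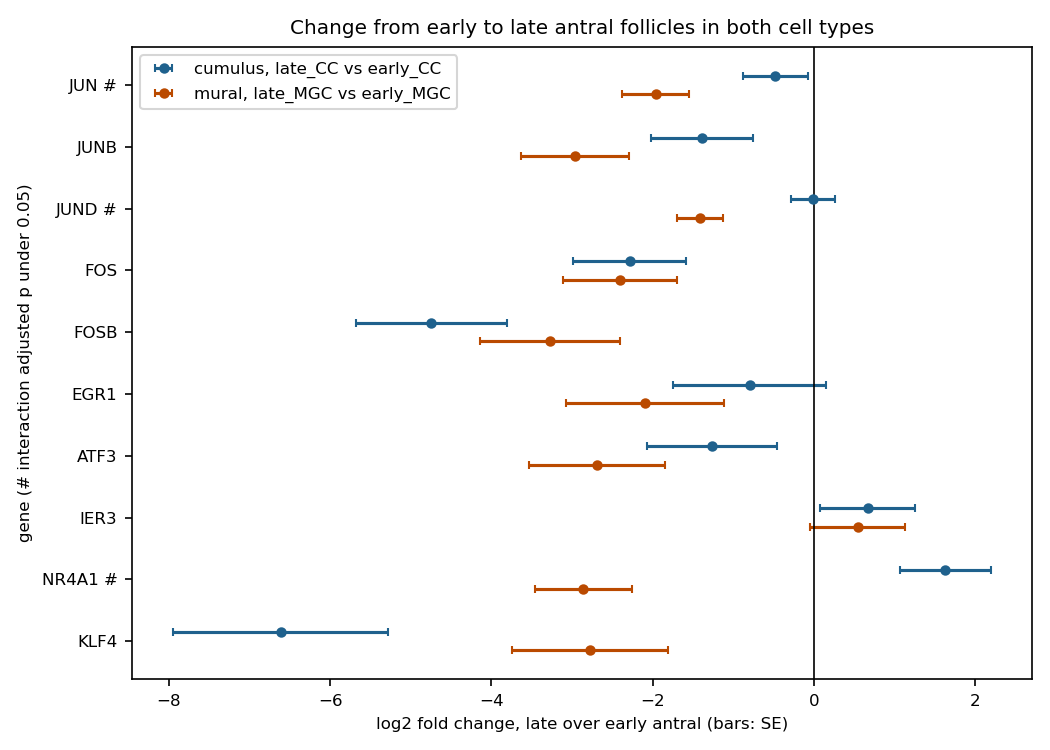
Log2 fold change from early to late antral follicles for each gene, in cumulus cells (late_CC over early_CC, blue) and mural cells (late_MGC over early_MGC, orange), with bars of 1 SE; # marks genes called for the interaction. The NR4A1 points lie on opposite sides of 0, at 1.63 and -2.86, and KLF4 and FOSB lie furthest below 0 in cumulus cells.

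In 4 of the 5 groups 1 library was the highest or the lowest of its group for 7 or more of the 10 genes. Late_MGC 4 was the lowest late_MGC library for 10 of 10 genes, with a summed level of 80.5 CPM against 668 to 1596 CPM in the other 4. Early_MGC 5 was the highest early_MGC library for 9 of 10, with 11050 CPM, and early_MGC 4 the lowest for 7, with 2260 CPM. Late_CC 4 was the highest late_CC library for 8 of 10, with 3390 CPM, and late_CC 1 the lowest for 5, with 521 CPM. Early_CC 1 was the lowest early_CC library for 8 of 10. In late_MGC the highest library was late_MGC 3 for 7 genes and late_MGC 1 for 3. Secondary_GC showed no such library: secondary_GC 4 was the highest for 3 genes and the lowest for 3 others, and secondary_GC 1 the highest for 2 and the lowest for 3. In early_CC 3, IER3 and NR4A1 were the highest of the group while FOSB and KLF4 were the lowest. Among early_MGC libraries the one with the lowest levels had the highest mitochondrial share of counts (36.5%) and the one with the highest levels the lowest share (12.5%), with 13921 and 16517 genes detected. In late_MGC the lowest library, late_MGC 4, had a share of 14.5%, within the 10.3% to 21.5% of the other libraries, and 13190 CPM of granulosa markers against 9541 to 13340 CPM in late_MGC 1, 2 and 5. The part of these measures in the results was not tested. Without the 3 libraries that stand apart, 8 of the 10 genes were again called lower in late_MGC than in early_MGC. In that fit 12.7% of all genes tested were called lower there.

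**Figure D5:**
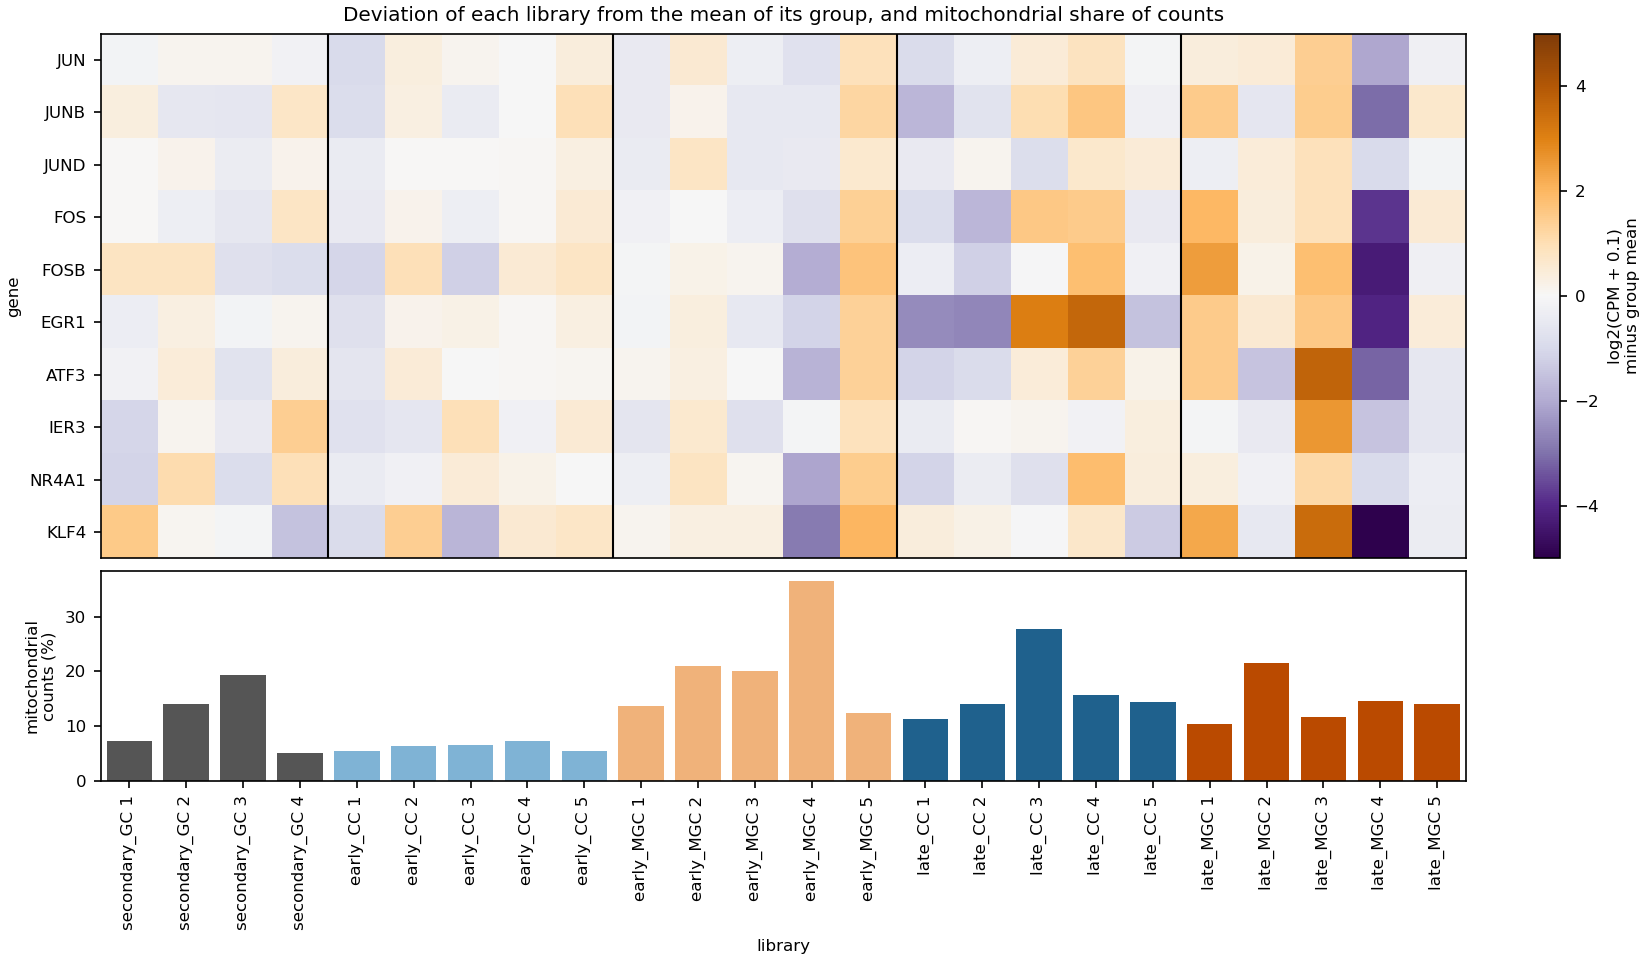
Upper panel: log2(CPM + 0.1) of each gene in each library minus the mean of its group, orange above and purple below it, with lines between groups; lower panel: mitochondrial share of counts per library in percent. The column of late_MGC 4 is purple for all 10 genes, and early_MGC 4, with a mitochondrial share of 36.5%, is purple for most of them.

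By the root mean square difference of standardised log2 CPM over the 24 libraries, where 0 means the same pattern, the closest pairs among the 10 genes were FOSB with KLF4 (0.317), FOS with JUNB (0.325), ATF3 with JUNB (0.367) and EGR1 with FOS (0.374). KLF4 and NR4A1 were the least alike (1.498). Outside the set the gene nearest to FOS was IER2 (0.358), itself an immediate early gene, followed by PNRC1 (0.432) and MYL2 (0.503). IER2 was also nearest to EGR1 (0.369), ahead of CAMSAP3 (0.584) and MCF2L2 (0.601). JUN lay nearest to PPP1R15A (0.451), a stress-induced regulator of translation, then IER2 (0.507) and MYH7B (0.527). KLF4 lay nearest to ID1 (0.397), a target of bone morphogenetic protein signalling, then TOB1 (0.468). These distances are descriptions across libraries that differ in group, depth and composition.

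Other genes of the same pathway were read from 4 lists: other immediate early genes, AP-1 partners, kinases and factors upstream of them, and MAP kinase phosphatases. Of 33 other immediate early genes tested, 4 fell and 2 rose in late_MGC against early_MGC, near the 9.3% and 9.76% of all tested genes. Without the 3 libraries that stand apart 17 fell and 1 rose, where 12.7% of all genes tested in that fit were called lower and 11.2% higher. The median log2 fold change of the list was -0.66. IER2, an immediate early nuclear factor, had 26.8 ± 19.3 CPM in late_MGC and 186 ± 103 CPM in early_MGC (-2.63 ± 0.69, adjusted p = 0.0108). ID1, an inhibitor of differentiation factors, had 9.99 ± 10.3 CPM in late_MGC and 75.5 ± 64.4 CPM in early_MGC (-2.69 ± 0.57, adjusted p = 0.00222), and was at -3.54, adjusted p = 0.000109 without late_MGC 1. ZFP36, which destabilises short-lived RNAs, fell at -2.10 ± 0.55 (adjusted p = 0.0106), a call lost without early_MGC 5 (-1.48, adjusted p = 0.0502). SGK1, a kinase, was called higher at 4.34 ± 1.42 (adjusted p = 0.0379), but without late_MGC 3 it was called lower at -2.06, adjusted p = 0.00786. The phosphatases that switch off MAP kinases and are themselves induced by them include DUSP1 and DUSP8. Of 7 tested, 2 fell in late_MGC and none rose, and without the 3 libraries 4 fell. DUSP1 had 98.2 ± 112 CPM in late_MGC and 412 ± 298 CPM in early_MGC (-1.95 ± 0.56, adjusted p = 0.0178), and its call was lost without early_MGC 5 (-1.51, adjusted p = 0.0658) and was at -2.79, adjusted p = 0.000381 without late_MGC 3. DUSP8 fell at -3.29 ± 0.76 (adjusted p = 0.00412), and at -5.63, adjusted p = 2.10e-06 without late_MGC 3; both were not called in a fit of the 2 groups alone (adjusted p = 0.0905 and 0.0654). Of 9 tested AP-1 partners, such as FOSL2, BATF and the MAF and ATF proteins, MAFF alone fell, at -2.56 ± 0.81 (adjusted p = 0.0314). That call was lost without early_MGC 5 (-1.76, adjusted p = 0.139), without late_MGC 1, 2, 4 or 5 (adjusted p = 0.0559 to 0.0697), without the filter on low counts and when the 2 groups were fitted alone, and without late_MGC 3 it stood at -4.08, adjusted p = 0.000884. Of 22 kinases and factors upstream of these genes, 2 rose and none fell, again near the background. The 2 were MAP2K3 and RPS6KA3, and MAP2K3 rested on late_MGC 3 (1.12 ± 0.34, adjusted p = 0.0233, and 0.47, adjusted p = 0.186 without it). Without the 3 libraries 1 upstream gene rose and 3 fell. The median log2 fold changes of these 3 lists were -0.45 for the phosphatases, -0.11 for the AP-1 partners and 0.05 for the upstream genes.

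In cumulus cells 9 of the 22 upstream genes rose in late_CC against early_CC and 1 fell, where 22.5% of all tested genes were called higher and 22.7% lower. In the fit without the 3 libraries that stand apart 9 rose and 4 fell. The median log2 fold change of the list was 0.33. RPS6KA1, a kinase activated by ERK, had 18.1 ± 7.05 CPM in late_CC and 4.77 ± 1.54 CPM in early_CC (1.92 ± 0.36, adjusted p = 0.000123). RPS6KA5, a kinase that modifies histones at immediate early genes, had 133 ± 13.1 CPM in late_CC and 58.4 ± 8.81 CPM in early_CC (1.196 ± 0.30, adjusted p = 0.00226). SRF, the factor that binds the serum response element of FOS and EGR1, stood at 75.5 ± 51.9 CPM in late_CC and 27.8 ± 6.82 CPM in early_CC (1.42 ± 0.45, adjusted p = 0.0142), a call lost without late_CC 4 (1.007, adjusted p = 0.0688). Among the 33 other immediate early genes 5 rose and 7 fell, or 5 rose and 13 fell without the 3 libraries that stand apart. The list had a median of -0.32. KLF10, a zinc finger factor induced by TGF-beta, rose to 443 ± 172 CPM in late_CC, against 48.5 ± 11.4 CPM in early_CC (3.18 ± 0.48, adjusted p = 1.69e-05). ID1 fell to 0.895 ± 0.327 CPM in late_CC, against 43.1 ± 12.1 CPM in early_CC (-5.57 ± 0.69, adjusted p = 2.52e-06). PTGS2, the prostaglandin synthase of cumulus expansion, fell to 0.158 ± 0.154 CPM in late_CC, against 2.34 ± 1.49 CPM in early_CC (-3.87 ± 0.79, adjusted p = 0.000316), and was at -4.63, adjusted p = 0.000171 without late_CC 3. In late_CC libraries 3 counts correspond to 0.147 to 0.211 CPM, so the size of the PTGS2 fall is uncertain. Of the 9 AP-1 partners 3 rose, FOSL2, MAFG and ATF2. FOSL2, a FOS relative, rested on late_CC 3 (2.95 ± 1.08, adjusted p = 0.0299, and 0.93, adjusted p = 0.430 without it). MAFG was at 1.27 ± 0.34 (adjusted p = 0.00378) and ATF2 at 0.85 ± 0.22 (adjusted p = 0.00238), and ATF4, a factor of the amino acid and unfolded protein responses, fell (-0.60 ± 0.18, adjusted p = 0.00964). The AP-1 counts without those 3 libraries were 2 higher and 3 lower. Of the 7 phosphatases DUSP7 rose (2.06 ± 0.38, adjusted p = 0.000114) and DUSP5 fell (-3.10 ± 0.69, adjusted p = 0.000835; -4.09, adjusted p = 0.000197 without late_CC 4).

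The interaction of stage and cell type was also read for these neighbours in the pathway. Above 0, meaning a change that was higher in cumulus than in mural cells, lay 5 of the 33 other immediate early genes, 4 of the 22 upstream genes, 2 of the 7 phosphatases and 1 of the 9 AP-1 partners, against 14.5% of all tested genes. Without the 3 libraries that stand apart these counts were 8, 5, 4 and 3, where 16.5% of all genes tested in that fit were called. Those called over all libraries included KLF10 (3.41 ± 0.64, adjusted p = 0.000385), ZFP36 (2.98 ± 0.77, adjusted p = 0.00547), SRF (2.39 ± 0.64, adjusted p = 0.00685), RPS6KA5 (1.87 ± 0.43, adjusted p = 0.00175) and DUSP7 (1.87 ± 0.53, adjusted p = 0.00916). Without single libraries KLF10 was at 4.08, adjusted p = 5.56e-06 (late_MGC 3) and ZFP36 at 2.35, adjusted p = 0.0141 (early_MGC 5). Below 0, where 16.9% of all tested genes were called, lay 3 of the other immediate early genes and 1 of the upstream genes, among them ID1 (-2.88 ± 0.83, adjusted p = 0.0109), which limma-voom did not call (-2.47, adjusted p = 0.0807) and which was at -2.02, adjusted p = 0.0324 without late_MGC 1. At the earlier step none of the other immediate early genes was called in early_CC against secondary_GC by edgeR over all libraries, where 1.99% of all tested genes were called, and 12 had an unadjusted p under 0.05. DESeq2 called 4 of them lower there and limma-voom 3. Of all genes these fits called 722 and 603, against 285 with edgeR over all libraries. An edgeR fit that left out late_MGC 3, late_CC 3 and early_MGC 4, which are in neither group, called 12 lower, where 4.76% of all genes tested in that fit were called lower. DUSP5 and DUSP10 fell in early_CC against secondary_GC. DUSP5, an ERK phosphatase, had 2.93 ± 0.443 CPM in early_CC and 25.03 ± 30.2 CPM in secondary_GC (-3.05 ± 0.64, adjusted p = 0.0107), a call lost without secondary_GC 4 (-1.74, adjusted p = 0.148). DUSP10, which acts on JNK and p38, had 1.19 ± 0.496 CPM in early_CC and 8.36 ± 4.93 CPM in secondary_GC (-2.78 ± 0.55, adjusted p = 0.00750).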

How the data were processed

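The deposited file holds raw read counts per gene for 24 libraries, which the authors made with featureCounts 2.0.0 over exons of Ensembl genes of ARS-UCD1.2, with no strand, pair or multiple-mapping option, per the file headers. Reads were handled with fastp 0.20.0, HISAT2 2.1.0 and SAMtools 1.10, per the submitters' processing notes, and libraries were made with a SMART-Seq v4 kit and Nextera XT, per the labels' protocols. Library totals had a median of 18070281.5 counts. Of the columns of values, 1 (undetermined reads) was not used. Columns of secondary_GC carry numbers that differ from those of the sample titles, and columns of late_MGC carry no replicate number. The libraries of both groups are therefore numbered by column order.

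Symbols were assigned by position from RefSeq's ARS-UCD2.0 gene table, requiring the best mutual overlap of at least 0.5 of the union of both spans. A symbol went to 10805 (88.4%) of the 12219 genes that averaged 1 CPM or more; after a shift of 1000000 bases 1004 did. None of the 10 genes overlapped another gene of the table.

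Counts were fitted in R 4.3.3 with edgeR 4.0.16 (TMM scaling, filterByExpr, robust quasi-likelihood, 1 mean per group over all 24 libraries), giving a biological coefficient of variation of 42.4%, and Benjamini-Hochberg adjustment ran over 14298 genes. Standard errors are those implied by the test statistic. CPM values are plain shares of library totals and have no TMM scaling. Alternatives were RLE scaling, no filter on low counts, DESeq2 1.42.0, limma-voom (limma 3.58.1), a fit of the compared groups alone, a replicate block, leaving out each library and leaving out the 3 libraries that stand apart. A fit of the 15 numbered libraries alone, without the block, and the counts over lists without those 3 libraries were added after seeing the data. The 10 genes and the lists were chosen with earlier results of these data known. All 10 are named whatever their values; of a list at most the 4 called genes with the largest change in a comparison are named, and the 3 nearest genes of JUN, FOS and EGR1 and 2 of those of KLF4, of which 1 is not reported here. The distances between genes use log2 CPM with a prior count of 2, set to mean 0 and SD 1 per gene.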

Additional observations from a re-analysis of the deposited data

Results flagged for a closer look

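In 7 of the 50 sets formed by a gene and a group, 1 library stood further from the others than Dixon's 95% limit allows. For independent, normally distributed values chance alone gives about 1 such set in 20. The CPM values were used without a log and the genes vary together among libraries, so that rate does not apply here. Early_MGC 5 was the highest of its group for JUNB at 375.8 CPM, for FOS at 5124 CPM and for KLF4 at 212.8 CPM. Late_CC 4 was the highest of its group for FOSB at 19.03 CPM and for NR4A1 at 662.1 CPM. Late_MGC 3 was the highest of its group for ATF3 at 186.6 CPM and for IER3 at 114.6 CPM. All 7 lay in only 3 libraries and at the high end of their group, on a scale without a log that favours high values.

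The change from early to late antral follicles differed between cumulus and mural cells by the interaction test of edgeR for 3 genes. The log2 difference, cumulus minus mural, was 4.49 for NR4A1, 1.40 for JUND and 1.48 for JUN. The calls of NR4A1 and JUND held without any single library. That of JUN (adjusted p = 0.0489) was lost without any 1 of 13 libraries.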

How the results depend on the processing

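Over the settings run for the 49 results of the 10 genes that have a fold change given, 3 changed sign, all of them IER3 in late_MGC over early_MGC, at -0.045 with limma-voom, -0.683 without the 3 libraries that stand apart and -0.689 without late_MGC 3 (-0.689 to 0.801 over the single libraries left out). Of the other settings of these results, 784 kept direction and side of the threshold, 46 lost a call and 32 gained one. The plots of fold changes also draw the other results of the 10 genes, except the interactions of FOS, EGR1 and IER3. These other 21 results were not called and lay within 1 SE of 0. Of these 12 changed sign in some setting, for example EGR1 in late_CC over late_MGC (0.44, and -0.81 with limma-voom), the EGR1 interaction (1.30, and -0.10 with limma-voom) and JUND in late_CC over early_CC (-0.013, and 0.137 without the 3 libraries that stand apart). Of the 20 calls, 13 held without any single library. SGK1 in late_MGC over early_MGC changed sign as well, at -0.344 with limma-voom, -2.26 without the 3 libraries that stand apart and -2.06 without late_MGC 3 (-2.06 to 4.66 over the single libraries left out).

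The number of all genes called in early_CC against secondary_GC was 285, and 722 with DESeq2, 603 with limma-voom, 964 in a fit of the 2 groups alone and 1304 without the 3 libraries that stand apart. A fit of the 2 groups alone called 1612 genes in late_MGC against early_MGC, against 2725 with all groups, and 3035 in early_CC against early_MGC, against 1871. The cause was not tested. Leaving out 1 library at a time gave 516 to 1524 genes in early_MGC against secondary_GC (1301 with all), 150 to 358 in early_CC against secondary_GC, 2093 to 3396 in late_MGC against early_MGC, 5727 to 6496 in late_CC against early_CC (6457 with all), 1222 to 1761 in early_CC against early_MGC, 4857 to 5891 in late_CC against late_MGC (5673 with all) and 3826 to 5138 for the interaction (4486 with all).

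The labels do not say whether equal replicate numbers of early_CC, early_MGC and late_CC pair the libraries. Libraries of the same number had correlations of their deviations from the group means between -0.147 and 0.242, which do not settle it. Replicate 1 correlated best with its own number in each pair of these groups, replicate 2 in 1 pair, and replicates 3 to 5 in none. With the replicate block over the 15 numbered libraries 6912 genes were called in late_CC against early_CC, against 6922 in the same libraries without it, and 2656 in early_CC against early_MGC, against 2591. In late_CC over early_CC the fit with the block was set against the fit over all libraries. It lost the call of NR4A1 (1.40, adjusted p = 0.0729). It gained calls of IER3 (0.73, adjusted p = 0.0432, against 0.0914 in the same libraries without the block), ATF3 (-1.34, adjusted p = 0.0467) and JUNB (-1.50, adjusted p = 0.0281). The same 15 libraries without the block also called ATF3. With and without it, 1 gene of the set was called higher and 5 lower, so not all of these changes come from the block.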

Other observations

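Heat shock genes encode chaperones that are induced by protein damage and, like the 10 immediate early genes, by stress on cells. In late_MGC against early_MGC, 3 of the 15 tested rose and 1 fell, where 9.76% of all tested genes were called higher and 9.3% lower. Without the 3 libraries that stand apart 2 rose and 2 fell, where 11.2% of all genes tested were called higher and 12.7% lower. The gene that fell over all libraries was HSPA5, the chaperone of the endoplasmic reticulum. HSPA5 had 1253 ± 405 CPM in late_MGC and 3341 ± 1931 CPM in early_MGC (-1.27 ± 0.29, adjusted p = 0.00366). HSP90AB1 rose at 0.62 ± 0.18, adjusted p = 0.0175, a call lost without early_MGC 4 (adjusted p = 0.0504) or late_MGC 4 (adjusted p = 0.0507). In late_CC against early_CC, 4 fell and 1 rose, where 22.7% of all tested genes were called lower and 22.5% higher. HSPA1A, the stress-induced HSP70, had 44.7 ± 10.5 CPM in late_CC and 342 ± 136 CPM in early_CC (-2.94 ± 0.49, adjusted p = 5.60e-05), and HSPA8, its constitutive relative, fell as well (-1.12 ± 0.22, adjusted p = 0.000241). HSPA1A belongs to a family with near-identical copies, so its counts are uncertain. Late_MGC 4, the library lowest in all 10 immediate early genes of its group, held 11060 CPM of summed heat shock genes, against 9601 to 10980 CPM in the other late_MGC libraries, while early_MGC 5 held 15190 CPM and early_MGC 4 held 6151 CPM.

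Late_CC libraries 3 and 4, the 2 with 740.2 and 1068 CPM of EGR1, differed in other ways from each other. Late_CC 3 held 5788 CPM of granulosa markers, 3.74 CPM of erythroid markers and a mitochondrial share of 27.7%. Late_CC 4 held 32910 CPM, 173 CPM and 15.7%. NR4A1 stood at 109 CPM in late_CC 3 and at 662 CPM in late_CC 4. Both carry the late_CC label, and no cause was tested.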
